A study of Mus musculus with 7 samples.

Results

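A set of 7 genes of mouse chromosome 7 are described here by all of their microarray probe sets: Gprc5b, Sec23ip, Iqgap1, Myo7a, Coro1a, Rab6a and Micalcl. A probe set is a group of short oligonucleotides that matches a single stretch of a transcript, and a gene can have several. The members were taken as every probe set annotated to exactly 1 of the 7 symbols, which gave 19 of the 45037 probe sets tested, and 0 further probe sets listed a member beside another gene. Iqgap1 had 7 of them, Coro1a and Rab6a 3 each, Gprc5b and Sec23ip 2 each, and Myo7a and Micalcl 1 each. The genes were chosen because at least 1 of their probe sets differed between the genotypes, in several of them without the gene's other probe sets. Their differences are therefore given as a description. Adjusted p-values of members come from the fit over all probe sets and, after this choice, are no evidence about the members.

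Wound-edge skin was taken on day 5 after wounding from C57BL/6 mice that were MFG-E8 WT (animals 2, 3 and 4) or MFG-E8 KO (animals 8, 10, 11 and 12). Each of the 7 animals had its own array, hybridised with biotin-labelled RNA. How the knockout allele was made, its breeding history, and the age and sex of the mice are not given in the sources used here. Values are GCRMA values on the log2 scale from which a constant had been subtracted for every probe set, so a value says how far an animal lies from that probe set's own centre. Levels of different probe sets cannot be compared, and differences are KO minus WT, with the standard error (SE) of a limma fit over all probe sets. In a bulk sample, fewer cells of a type and less RNA per cell cannot be told apart.

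As background, most of these genes serve membrane traffic and the actin cytoskeleton. Sec23ip binds the COPII coat, which carries cargo out of the endoplasmic reticulum, and Rab6a is a small GTPase of the Golgi that directs vesicles along microtubules. Iqgap1 is a scaffold that joins actin, Rac and Cdc42 at the leading edge of migrating cells, Myo7a is an unconventional myosin best known from inner ear hair bundles, and Coro1a is the coronin of leukocytes. Gprc5b is an orphan receptor of the family of retinoic acid-induced G protein-coupled receptors, and Micalcl is related to the MICAL proteins, which act on actin filaments. On these arrays a probe set reports only the stretch that its oligonucleotides match, so probe sets of a gene can differ where isoforms, transcript ends or the sequence under the oligonucleotides differ. Which of these applied to the 7 genes was not tested, since the oligonucleotide sequences were not used here.

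The targeted gene was low in every KO animal. Mfge8 1420911_a_at read 0.91, 0.76 and 0.996 in WT animals 2, 3 and 4, and -0.64, -0.96, -1.14 and -1.30 in KO animals 8, 10, 11 and 12. Whether its oligonucleotides match the altered part of the gene was not tested. All 8 epidermal markers with a probe set, of 9 listed, had a probe set with a recovered level of at least 8 on the log2 scale. This level is a coarse band (2 to 4, 4 to 8, or 8 and above) inferred from the step size to which the stored values are rounded. Hair follicle markers were far higher in KO animals 8 and 10 (mean over 8 genes 3.92 and 4.00) than in the other 5 animals (-1.89 to 0.61). Leukocyte markers were lower in KO in 10 of 10 genes, with list means of -0.03 to 0.45 in WT and -0.49 to 0.00 in KO.

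In gene order along the chromosome, all 7 lie on the same side of Mfge8. The order is Iqgap1, Myo7a, Rab6a, Micalcl, Gprc5b, Coro1a and Sec23ip, with 32, 149, 190, 507, 546, 636 and 722 protein-coding genes between each and Mfge8 in the RefSeq table. The RefSeq promoter table (GRCm38.p6) held 10 annotated starts for the 7 genes, namely 2 each for Myo7a, Coro1a and Micalcl and 1 each for the other 4. Gprc5b and Sec23ip are shown because their most different probe sets had the profiles nearest to each other, as described below. Each window runs from 250 bases before to 50 bases after the start, 5′ to 3′ on the gene's strand, and capitals mark the GC box letters GGGCGG on either strand.
Gprc5b, chr7:118995162-118995461, minus strand: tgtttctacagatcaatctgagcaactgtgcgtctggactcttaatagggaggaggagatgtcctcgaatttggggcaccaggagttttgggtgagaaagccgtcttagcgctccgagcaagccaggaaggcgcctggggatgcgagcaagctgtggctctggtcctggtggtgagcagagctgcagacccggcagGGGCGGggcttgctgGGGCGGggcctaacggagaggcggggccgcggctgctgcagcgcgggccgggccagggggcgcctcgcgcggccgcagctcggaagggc
Sec23ip, chr7:128744620-128744919, plus strand: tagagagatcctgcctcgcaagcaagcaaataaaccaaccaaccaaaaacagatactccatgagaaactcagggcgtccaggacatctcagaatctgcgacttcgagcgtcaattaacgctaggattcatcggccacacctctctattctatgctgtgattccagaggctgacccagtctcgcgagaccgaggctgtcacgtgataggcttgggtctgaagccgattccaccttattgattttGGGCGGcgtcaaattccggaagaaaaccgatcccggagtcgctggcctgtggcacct
The Gprc5b window held 2 GC boxes and 23 CG pairs, and the Sec23ip window 1 GC box and 18 CG pairs, against a median of 7 CG pairs over 32851 such windows. Many CG pairs were not particular to these windows. The Rab6a window held 29, that of Iqgap1 28, those of Coro1a 10 and 19, those of Myo7a 6 each, and those of Micalcl 2 and 5. GGGCGG was present in 6 of the 10 member windows and in 35.7% of all windows, the CCAAT box in 4 and in 37.4%, and the TATA box letters TATAAA in 0 and in 13.6%, each on both strands. These matches describe letters and are not known sites. Gprc5b and Sec23ip have a single listed start each, and which transcripts their probe sets read was not tested.

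**Figure D1:**
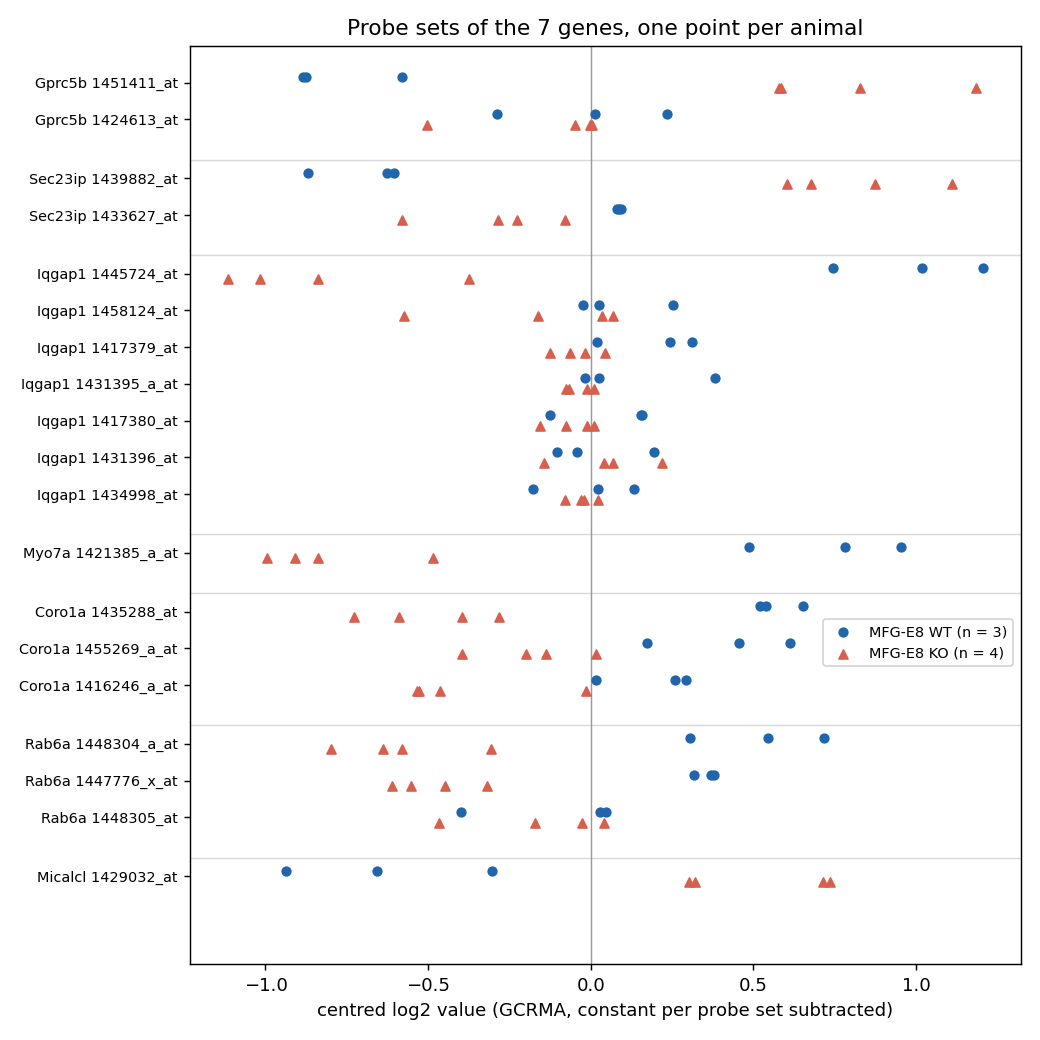
Centred log2 values (x axis) of the 19 probe sets, grouped by gene, with a point for each WT (circles, n = 3) and KO animal (triangles, n = 4). Within Gprc5b, Sec23ip, Iqgap1 and Rab6a, a probe set with widely separated groups stands beside at least 1 whose groups overlap or, for Sec23ip, lie in the opposite order.

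Of the 19 probe sets, 4 passed an adjusted p of 0.05 (limma, Benjamini-Hochberg over all probe sets), 2 higher and 2 lower in KO, against 0.0444% of all probe sets in either direction, 0.00888% higher and 0.0355% lower. They were 1451411_at of Gprc5b, 1439882_at of Sec23ip, 1445724_at of Iqgap1 and 1421385_a_at of Myo7a. The nearest probe set on the other side of the threshold, over the whole table, was 1435288_at of Coro1a. The number of members past the threshold was 0 when WT animal 2, WT animal 3 or KO animal 10 was left out, 1 when WT animal 4 or KO animal 11 was, 2 when KO animal 12 was, and 7 with array weights. After quantile normalization it was 3: Gprc5b 1451411_at and Sec23ip 1439882_at still passed, Coro1a 1435288_at did so too (limma adjusted p = 0.0282), and Myo7a 1421385_a_at (0.056) and Iqgap1 1445724_at (0.108) did not. Groups did not overlap in 11 of the 19, 3 higher and 8 lower, against 7.77%, 3.23% and 4.54% of all probe sets, and a difference of at least log2 1 was measured in 7 of the 19 against 0.788%. Because the members were picked on this contrast, nothing is read from these shares or from the members' adjusted p-values.

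Gprc5b differed in 1 probe set and not in the other, although both are listed under the same GenBank record and in the same level band of 4 to 8. Probe set 1451411_at read -0.88, -0.58 and -0.87 in WT animals 2, 3 and 4, and 1.18, 0.83, 0.59 and 0.58 in KO animals 8, 10, 11 and 12. Every KO animal was above every WT animal, by log2 1.57 between the means (SE 0.17, 2.97-fold). Probe set 1424613_at read -0.29, 0.23 and 0.01 in WT and 0.00, -0.05, -0.50 and -0.00 in KO. Here the groups overlapped, and the difference of log2 -0.12 (SE 0.17) was smaller than the spread within either group. The gap between the probe sets, taken within each array, had a mean of -0.77 ± 0.15 (SD, n = 3) over WT animals and 0.93 ± 0.27 (SD, n = 4) over KO animals.

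Sec23ip had probe sets that pointed in opposite directions. Probe set 1439882_at read -0.60, -0.63 and -0.87 in WT animals 2, 3 and 4, and 1.11, 0.87, 0.60 and 0.68 in KO animals 8, 10, 11 and 12, a difference of log2 1.52 (SE 0.15, 2.86-fold). Probe set 1433627_at read 0.08, 0.09 and 0.09 in WT and -0.08, -0.29, -0.58 and -0.23 in KO, a difference of log2 -0.38 (SE 0.13). In each the groups were apart, with KO above WT in the former and below it in the latter. The former lies in the level band of 4 to 8 and the latter in that of 8 and above. Taken within each array, the gap averaged -0.79 ± 0.15 (SD, n = 3) over WT animals and 1.11 ± 0.14 (SD, n = 4) over KO animals, so that the KO animals lay closer together in the gap than in 1439882_at itself (SD 0.23).

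The probe sets of Gprc5b and Sec23ip that were higher in KO had nearly the same profile. Among all probe sets with 1 symbol, the nearest profile to 1451411_at of Gprc5b over the 7 arrays was 1439882_at of Sec23ip, and the reverse also held. Their root mean square difference was 0.11 on the log2 scale after each profile was centred on the mean of its group means. The next nearest to Gprc5b were the uncharacterised 3110040N11Rik (0.27) and Micalcl (0.35), and to Sec23ip the same genes (0.21 and 0.27), all on chromosome 7. A large shared difference between the genotypes by itself brings profiles close in this measure.

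Micalcl has a single probe set of its own, so no comparison within the gene could be made. Probe set 1429032_at read -0.30, -0.94 and -0.66 in WT animals 2, 3 and 4, and 0.71, 0.73, 0.30 and 0.32 in KO animals 8, 10, 11 and 12. All KO animals were above all WT animals (difference log2 1.15, SE 0.18, 2.22-fold). Its nearest profiles were those of Lrat, which esterifies retinol (0.16), the desmosomal cadherin Dsg2 (0.19) and Trim2 (0.21), none of them on chromosome 7. Mical2, the actin-oxidising enzyme whose gene precedes Micalcl on the chromosome, had differences of log2 -0.41 (SE 0.14) and 0.16 (SE 0.22) in its 2 probe sets, neither past the threshold (limma adjusted p = 0.541 and 0.906).

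In the 3 probe sets that were higher in KO, the highest animals were the 2 with high hair follicle values. KO animals 8 and 10 read 1.18 and 0.83 for Gprc5b, 1.11 and 0.87 for Sec23ip, and 0.71 and 0.73 for Micalcl, above KO animals 11 and 12 in each. All 8 hair markers had a higher mean in KO, and so did all 7 melanocyte markers, whose list mean was 2.50 and 1.79 in KO animals 8 and 10 and -1.59 to 0.40 in the other animals. Without KO animals 8 and 10, a fit added after seeing the data, the differences were log2 1.36 (SE 0.15) for Gprc5b, 1.34 (SE 0.14) for Sec23ip and 0.94 (SE 0.20) for Micalcl. In that fit 0 of the members' probe sets passed the threshold. KO animals 11 and 12, whose hair means of -1.66 and -0.69 lay within the WT range of -1.89 to 0.61, were above every WT animal in all 3. The part of hair follicle content in these differences was not tested.

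Iqgap1 had 1 probe set of 7 with a wide separation. Probe set 1445724_at read 1.02, 1.21 and 0.75 in WT animals 2, 3 and 4, and -0.84, -1.02, -1.11 and -0.37 in KO animals 8, 10, 11 and 12 (difference log2 -1.83, SE 0.19, 3.55-fold lower). KO animal 12 was the highest of its group and still below every WT animal. The other 6 probe sets had differences of log2 -0.24 (1458124_at), -0.23 (1417379_at), -0.17 (1431395_a_at), -0.12 (1417380_at), -0.02 (1434998_at) and 0.03 (1431396_at). Their groups overlapped in all 6, and their SE ranged from 0.11 to 0.17. Of these, 1417379_at, 1417380_at and 1434998_at were in the level band of 8 and above, while 1445724_at and the other 3 were between 4 and 8.

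Taken within each array, 1445724_at lay 0.91 ± 0.26 (SD, n = 3) above the mean of the other Iqgap1 probe sets in WT and -0.79 ± 0.31 (SD, n = 4) in KO, a change of log2 -1.70. The nearest profiles to 1445724_at belonged to Trim30d (0.10) and Trim30a (0.12), tripartite motif genes of the same chromosome, and to Mid1 (0.19), a microtubule-bound ubiquitin ligase on chromosome X.

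**Figure D2:**
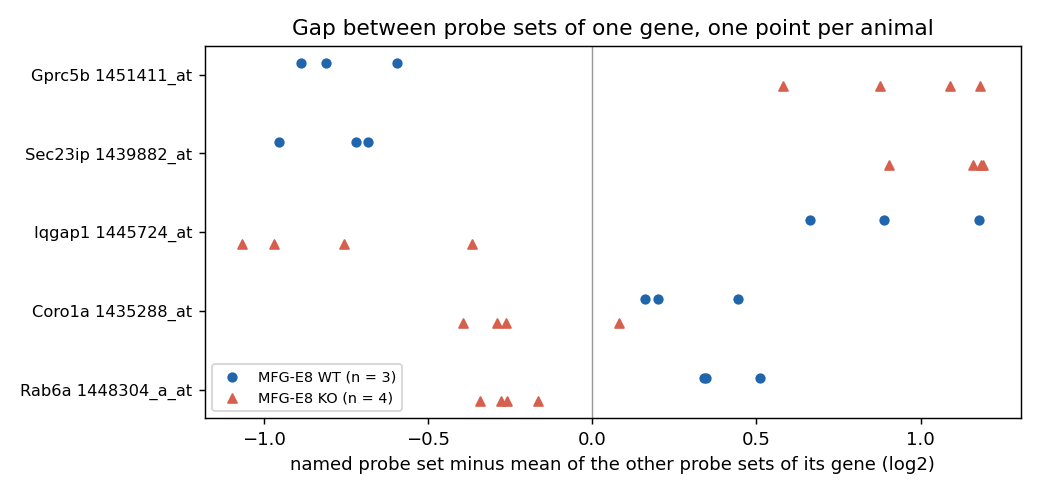
Gap in each animal between the most different probe set of a gene and the mean of the gene's other probe sets (x axis, log2), for the 5 genes with at least 2 probe sets, with WT as circles (n = 3) and KO as triangles (n = 4). No gene has overlapping groups, and the change from WT to KO runs from log2 -1.70 for Iqgap1 to 1.90 for Sec23ip. Each named probe set was picked for its large difference, which by itself favours groups that are apart, so nothing is read from this separation. How often such gaps are apart in other genes was not tested.

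Rab6a had 2 probe sets that were lower in KO and 1 that was not. Probe set 1448304_a_at read 0.55, 0.31 and 0.72 in WT animals 2, 3 and 4, and -0.31, -0.58, -0.80 and -0.64 in KO animals 8, 10, 11 and 12 (difference log2 -1.10, SE 0.15, 2.15-fold lower). Probe set 1447776_x_at read 0.38, 0.32 and 0.37 in WT and -0.32, -0.45, -0.61 and -0.55 in KO (log2 -0.84, SE 0.11, 1.79-fold lower). In both the groups were apart.

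The third Rab6a probe set, 1448305_at, read 0.03, -0.40 and 0.05 in WT and 0.04, -0.03, -0.47 and -0.17 in KO, with overlapping groups (log2 -0.05, SE 0.17). It is listed under the same GenBank record as 1448304_a_at, and all 3 probe sets were in the level band of 8 and above. Within the KO group the 3 probe sets put the animals in the same order, with animal 8 highest, then 10, 12 and 11. Taken within each array, 1448304_a_at minus 1448305_at averaged 0.63 ± 0.10 (SD, n = 3) over WT animals and -0.43 ± 0.11 (SD, n = 4) over KO animals, with less spread than in 1448304_a_at alone (SD 0.21 in either group). The 2 probe sets that were lower differed from each other by less: 1447776_x_at minus 1448304_a_at was -0.17 ± 0.18 in WT and 0.10 ± 0.08 in KO. Nearest in profile to 1448304_a_at were the cAMP-responsive transcription factor Crem (0.15), the oxysterol hydroxylase Cyp7b1 (0.15) and Lgi2 (0.15).

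Coro1a was lower in KO in all 3 of its probe sets, so its probe sets were at odds in size and not in direction. Probe set 1435288_at read 0.65, 0.52 and 0.54 in WT animals 2, 3 and 4, and -0.73, -0.28, -0.59 and -0.40 in KO animals 8, 10, 11 and 12 (log2 -1.07, SE 0.13, 2.10-fold lower). Probe set 1455269_a_at read 0.61, 0.46 and 0.17 in WT and -0.40, -0.20, -0.14 and 0.01 in KO (log2 -0.59, SE 0.15). Probe set 1416246_a_at read 0.29, 0.26 and 0.02 in WT and -0.53, -0.53, -0.46 and -0.02 in KO (log2 -0.57, SE 0.16). The groups did not overlap in any of the 3, but in the latter 2 WT animal 4 and KO animal 12 lay close to each other. The level band was 4 to 8 for 1435288_at and 8 and above for the others.

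Markers of leukocytes and of several other cell types were also lower in KO. The mean over Ptprc, Laptm5, Cd52, Cd53, Tyrobp, Fcer1g, Lcp1, Itgb2, Cd48 and Vav1 was 0.45, 0.34 and -0.03 in WT animals 2, 3 and 4, and -0.12, -0.31, -0.49 and 0.00 in KO animals 8, 10, 11 and 12, a difference of log2 -0.48. WT animal 4 and KO animal 12 stood close together in this list too. Within KO, 1455269_a_at was lowest in animal 8 (-0.40), while the list was lowest in animal 11. The mean was also lower in KO for 7 of 7 macrophage genes (log2 -0.49), 5 of 5 neutrophil genes (-0.66), 4 of 4 T cell genes (-0.45), 7 of 7 endothelial genes (-0.70), 7 of 7 skeletal muscle genes (-0.55) and 7 of 7 fibroblast genes (-0.44), with the difference of each list's mean in parentheses. The list means of the groups were apart for macrophages, neutrophils, T cells and endothelium and overlapped for leukocytes, skeletal muscle and fibroblasts. With its chromosome 7 gene left out, the macrophage list (6 genes, log2 -0.34) overlapped as well, with WT animal 4 at -0.10 and KO animal 8 at -0.02. The skeletal muscle list kept only 3 of its 7 genes without those on chromosome 7, all 3 lower in KO (log2 -0.42). None of the genes in these lists passed the threshold over all probe sets. The part of these shifts in the lower values of Coro1a, and of Iqgap1, Myo7a and Rab6a, was not tested. The profile nearest to 1435288_at was that of the class I histocompatibility gene H2-Q10 (0.08), followed by the neutrophil growth factor receptor Csf3r (0.11) and Nfkbie (0.12), an inhibitor of NF-kB.

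**Figure D3:**
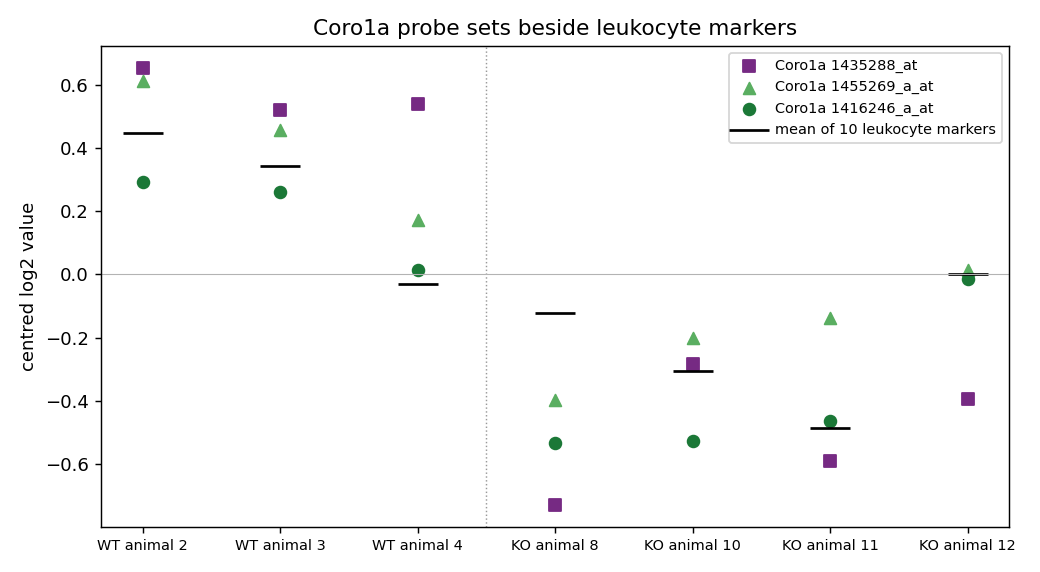
Centred log2 values (y axis) of the 3 Coro1a probe sets in each animal (x axis), with the mean of the 10 leukocyte markers as a bar. In WT animal 4 and KO animal 12, where the bars stand at -0.03 and 0.00, 1416246_a_at and 1455269_a_at lie between -0.02 and 0.17, while 1435288_at reads 0.54 and -0.40.

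Myo7a has 1 probe set of its own, with no second to set against it. Probe set 1421385_a_at read 0.95, 0.78 and 0.49 in WT animals 2, 3 and 4, and -0.49, -0.84, -0.996 and -0.91 in KO animals 8, 10, 11 and 12. All KO animals lay below all WT animals (log2 -1.55, SE 0.16, 2.92-fold lower). Its nearest profiles were those of the metalloproteinase inhibitor Timp1 (0.21) on chromosome X, the aggrecan-cleaving protease Adamts4 (0.23) on chromosome 1 and Trim30a (0.24). Without KO animals 8 and 10 the difference was log2 -1.69 (SE 0.17).

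Differences of this size between probe sets of a gene were uncommon on the array. Over the 8967 genes with at least 2 probe sets that were matched to the RefSeq table, the range of KO minus WT within a gene had a median of log2 0.17, and 44 genes, or 0.491%, reached a range of 1. Sec23ip (range 1.90) ranked 8th, Iqgap1 (1.86) 10th, Gprc5b (1.70) 12th and Rab6a (1.06) 38th, whereas Coro1a (0.50) ranked 599th. The share reaching 1 was 1.87% on chromosome 7 (11 of 588 genes) and 0.394% among the rest (33 of 8379, including 1 gene with no chromosome assigned), and it was 1.20% on chromosome 7 without the members (7 of 583). Since the members were chosen for such a range, their ranks are a description.

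**Figure D4:**
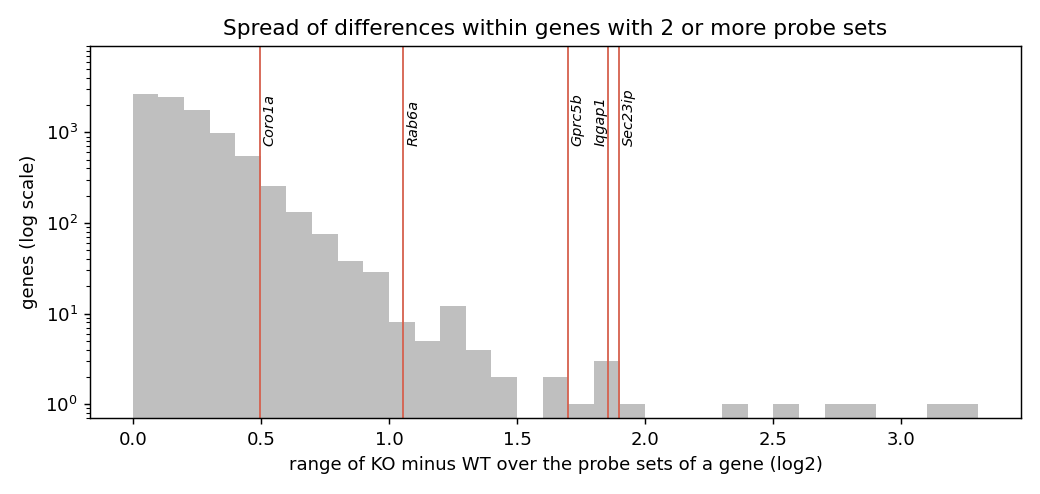
Number of genes (y axis, log scale) by the range of KO minus WT over their probe sets (x axis, log2), for 8967 genes, with lines at the 5 members that have at least 2 probe sets. Coro1a (0.50, 599th of 8967) lies above the median of 0.17, while Rab6a, Gprc5b, Iqgap1 and Sec23ip lie between 1.06 and 1.90. A range of at least 1 was reached by 0.491% of genes.

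None of the genes next to the members passed the threshold. The 3 nearest genes with a probe set on either side of each member came to 42 genes with 85 probe sets. Of these probe sets, 0 passed an adjusted p of 0.05 (limma). Over all probe sets 0.0444% passed, so the absence of calls among the neighbours is near that share. At an unadjusted p of 0.05 there were 8 of the 85, or 9.41%, against 7.39% of all probe sets. Their median difference was log2 -0.02, against 0.01 over all probe sets. Around Iqgap1 the 8 probe sets lay between log2 -0.21 and 0.22, and the largest was that of the RecQ helicase gene Blm. Around Myo7a the 16 lay between -0.06 and 0.22, where B3gnt6, a glycosyltransferase, was largest. Around Rab6a the 11 lay between -0.24 and 0.35 (Mrpl48, a mitochondrial ribosomal protein), and around Sec23ip the 10 between -0.26 and 0.30 (Inpp5f, an inositol phosphatase). Around Gprc5b the 14 lay between -0.60 (Vps35l, of an endosomal sorting complex) and 0.35, and around Micalcl the 14 between -0.41 and 0.44 (Rassf10). Other probe sets of these genes were at -0.23 and -0.15 for Mrpl48, and at -0.35 and -0.26 for Rassf10. Those of Vps35l ran from -0.59 to 0.16, and those of Inpp5f were at 0.17 and 0.26. The probe sets of Knop1, also next to Gprc5b, were at odds, at log2 0.35, -0.20 and -0.58. Around Gprc5b, unadjusted p-values under 0.05 (limma) belonged to Vps35l (0.00451, 0.0124 and 0.0445) and Knop1 (0.0141 and 0.0322).

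Next to Coro1a the spread was wider. The 12 probe sets there ran from log2 -1.31 to 0.82. The lowest was 1455219_at of Slx1b, a subunit of a structure-specific nuclease, at log2 -1.31 (SE 0.20, limma adjusted p = 0.108), while the other Slx1b probe sets were at -0.15 and 0.05. With array weights 1455219_at passed (log2 -1.38, adjusted p = 0.0191), as 1 of the 42 genes. The highest was Gdpd3, a lysophospholipase gene, at log2 0.82 (SE 0.24, adjusted p = 0.484).

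**Figure D5:**
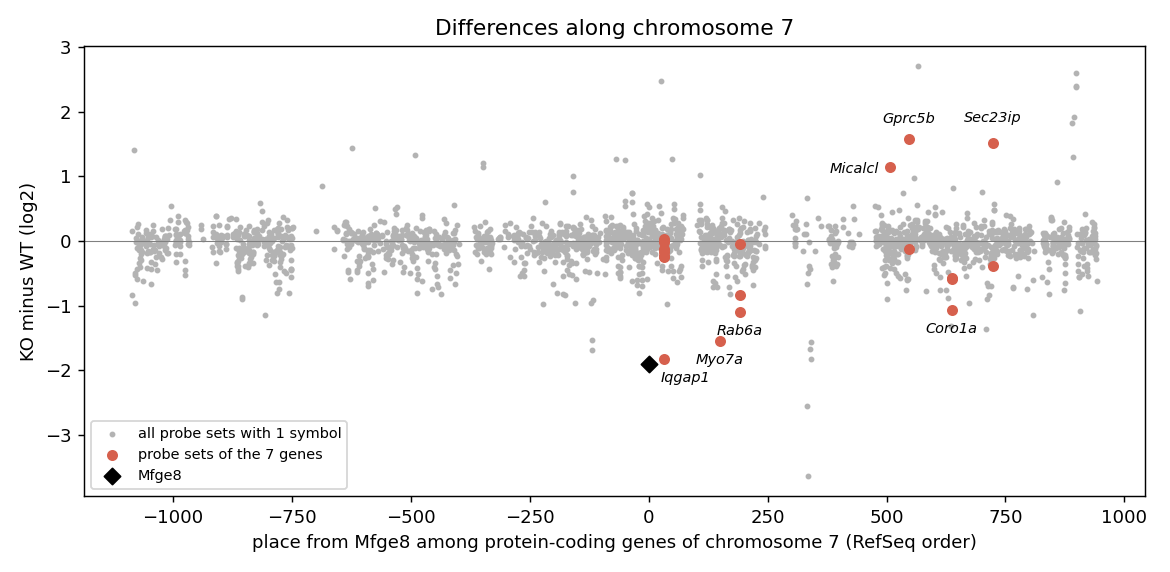
KO minus WT (y axis, log2) of every chromosome 7 probe set with 1 symbol, by the place of its gene from Mfge8 among protein-coding genes (x axis), with the 19 member probe sets and Mfge8 marked. The members' most different probe sets lie between log2 -1.83 and 1.57, and their neighbours mostly near 0.

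Genes that act with the members were followed in 7 lists, and none of them passed. The lists held 99 genes, 89 of them with 200 probe sets, and 0 genes rose and 0 fell at an adjusted p of 0.05 (limma). Over all probe sets 0.0444% passed, so the absence of calls in the lists is near that share. At an unadjusted p of 0.05 there were 22 probe sets, or 11%, against 7.39% of all probe sets tested. The median difference over the lists was log2 -0.06, against 0.01 over all probe sets.

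For a gene with several probe sets, the one with the smallest p is given first. The COPII list, which holds the coat subunits and the relatives of Sec23ip, had a median of log2 -0.09 over 35 probe sets (18 genes). Its smallest p-values belonged to Mia3 1459984_at (log2 -0.57) and the cargo adaptor Sec24d (log2 -0.59), with adjusted p = 0.412 and 0.47. The probe sets of Mia3, a receptor that loads collagen into COPII carriers, were at odds, with the other 3 at log2 -0.13, -0.08 and 0.25 and overlapping groups in each. The IQGAP list (11 genes, 33 probe sets) had a median of -0.08. In it Actb 1419734_at was at log2 0.72 (SE 0.15, adjusted p = 0.278), with KO values of 0.20 to 0.65 above WT values of -0.48 to -0.20, whereas Actb 1436722_a_at was at -0.06. The hyaluronan receptor Cd44 was at log2 -0.39 (adjusted p = 0.58), with its other 3 probe sets at -0.25 to -0.015.

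Partners of myosin VIIa and related myosins (12 genes, 30 probe sets) had a median of log2 0.10, and the scaffold Whrn (log2 0.50, adjusted p = 0.607) and the motor Myo1c (-0.30, 0.682) came first by p. Their other probe sets had the same sign, at log2 0.11 to 0.26 for Whrn and -0.43 to -0.23 for Myo1c. Coronins and the Arp2/3 complex, which nucleates branched actin, had a median of -0.16 over 29 probe sets (13 genes). There the Arp2/3 subunit Arpc2 was at log2 -0.40 (adjusted p = 0.447) in 1442295_at and -0.07 in 1437148_at, and Was, the Wiskott-Aldrich protein of blood cells that activates the complex, at -0.55 (0.571). Rab6 relatives and effectors (17 genes, 46 probe sets) had a median of -0.01, with the golgin Golga1 at log2 0.27 (0.571; its other probe sets 0.07 and 0.12) and Dennd5a, a Rab exchange factor, at -0.42 (0.627).

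The MICAL list (9 genes, 16 probe sets) had the lowest median, log2 -0.31. All KO animals were below all WT animals in 7 of its 16 probe sets, against 4.54% of all probe sets, and 4 of these 7 read Ehd1, an endocytic recycling ATPase (log2 -0.33 to -0.48, smallest adjusted p = 0.427). The GPRC5 family and retinoid-induced genes (9 genes, 11 probe sets) had a median of log2 0.04. The retinol transporter Stra6 was at log2 1.30 (adjusted p = 0.706), with 1.56 and 2.41 in KO animals 8 and 10 and -0.84 to 0.12 in the other 5 animals. Gprc5a was at log2 0.50 (adjusted p = 0.759), with 1.24 in KO animal 10 and -0.055 to 0.22 in the other KO animals. Gprc5d, in the level band of 2 to 4, had the largest difference of the 7 lists, log2 2.56 (adjusted p = 0.762). Gprc5d read 4.81 and 4.95 in KO animals 8 and 10, and -1.36 to 0.62 in the other 5 animals, so its groups overlapped.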

How the data were processed

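Per the submitters' processing notes, the arrays were processed with GCRMA, whose version, chip definition and log base are not given in the sources used here. The deposited values are on a log scale, taken as log2, and the authors had subtracted a constant for each probe set: values lie around 0, and in 72.4% of probe sets a middle pair of arrays is mirrored around 0 (tolerance 1e-06). Scale and direction of differences are known under that base, the centring constant is not. The table holds 45101 probe sets, of which 64 are controls, and the other 45037 were tested without a filter on levels, which the table does not carry; 34945 have 1 gene symbol, 932 several and 9160 none. The annotation paired probe sets with symbols, and 34741 were matched by Entrez ID to RefSeq (GRCm38.p6), used for names, chromosomes, gene order and promoter windows.

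KO was compared with WT by linear models in limma 3.58.1 with eBayes moderation (R 4.3.3), two-sided, with Benjamini-Hochberg adjustment over 45037 probe sets and a threshold of 0.05. The labels give no batch, and animal numbers differ between groups, so no pairing was used. The labels name separate animals, and their number limits the precision. Marker list means used each gene's probe sets in its highest level band. In simulated tables, 96.4% of level bands were right. There the fit recovered 73% of 200 probe sets shifted by log2 1 and 96% of 200 shifted by log2 2. Of its calls there, 6.4% were unchanged probe sets. In the measured table, 355 probe sets differed by at least log2 1, and 20 probe sets passed the threshold. The share of differences of either size that the fit finds in the measured table was not tested. The members, the 7 lists, the markers, the neighbours' rule and the alternatives were chosen with earlier results of these data known. Named genes were all members, the 2 genes per list with the smallest p, the neighbour with the largest difference per member, and the 3 nearest profiles per member. Gdpd3, Actb's second probe set and the other probe sets of Ehd1, Mia3, Cd44, Whrn, Myo1c, Arpc2 and Golga1 were named after their values were seen. So were Gprc5d, the probe sets of Knop1, and the other probe sets of Mrpl48, Rassf10, Vps35l and Inpp5f. Python 3.11.15, pandas 2.3.3, numpy 2.4.6 and matplotlib 3.10.9 were used.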

Additional observations from a re-analysis of the deposited data

Results flagged for a closer look

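Among 24 KO groups checked (the 19 probe sets and the 5 gaps), 3 held an animal far from the other 3, where chance gives about 1 in 20. In Coro1a 1416246_a_at, KO animal 12 was at -0.015, above the other KO animals at -0.53 to -0.46. In Gprc5b 1424613_at, KO animal 11 was at -0.50, below the others at -0.05 to 0.00. In the gap between the Sec23ip probe sets, KO animal 12 was at 0.91, below the others at 1.16 to 1.19.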

How the results depend on the processing

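The 7 members' largest differences and the 5 gaps kept their direction under every alternative that gave them a value. Leaving out probe sets named _x_at, _s_at or _a_at removed Myo7a 1421385_a_at and Rab6a 1448304_a_at and gave no gap for Coro1a and Rab6a. Values that moved by more than the spread between animals were those of Iqgap1 after quantile normalization (1445724_at log2 -2.18, gap -2.06). The 3 Coro1a probe sets also did so with the leukocyte mean subtracted. With that step 1435288_at was at log2 -0.59, 1416246_a_at at -0.09 and 1455269_a_at at -0.11. Without the list's chromosome 7 gene they were at -0.61, -0.11 and -0.13. The step was added after seeing the data. It moves every probe set by the list's own difference and so separates none of them. Over the whole table, 20 probe sets passed, against 13 after quantile normalization, 68 with array weights (KO animal 10 had a weight of 2.89), 11 without the probe sets so named, 40 at an adjusted p under 0.10, 6 without KO animals 8 and 10, and 5 to 19 without 1 animal in turn. Of the members' probe sets, 4 passed, against 3 after quantile normalization (Myo7a and Iqgap1 lost, Coro1a gained), 7 with array weights, 7 at 0.10, 0 without KO animals 8 and 10, and 0 to 3 without 1 animal in turn. Genes next to the members numbered 0, and 1 with array weights. The causes were not tested. No related gene passed under any alternative. No paired analysis was possible because the groups share no animal number.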
